A study of Mus musculus with 4 samples.

Results

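The genes described here code for the core protein machinery of pre-mRNA splicing and for the abundant nuclear RNA-binding proteins that steer it. They were chosen by name, as every gene listed in both tables whose symbol starts with Srsf, Hnrnp, Snrp, Sf3a or Sf3b. This gave 51 genes among 22481 symbols (22564 listed genes): 11 SR proteins, 20 hnRNPs, 12 snRNP proteins and 8 subunits of the SF3 complex. The prefix takes a few genes whose role differs from the rest of their class, such as Srsf12, a minor SR protein, and Snrpn, an imprinted relative of Snrpb. Prefixes such as Snrnp are not covered, so that Snrnp70 of the U1 particle falls among the partner genes given near the end.

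The study used RNA immunoprecipitation followed by sequencing to look for RNA bound by FAM172A in mouse brown adipose tissue, a fat that oxidises lipid to produce heat. The RNA that came down with an antibody to FAM172A (IP) was set against that which came down with control immunoglobulin (IgG), in 2 pairs of libraries, each with 1 IP and 1 IgG library. All 4 libraries carry WT in their titles and were made from brown adipose tissue. The cold protocol is given for the pair titled cold, and no protocol is given for the pair titled WT4. The labels used here give no strain, age or number of animals, and nothing in them states separate animals for the 2 pairs. The columns of the table called pair 1 here name only the fraction, so its libraries were taken to be the cold-titled ones only because the WT4 titles name the columns of the other table.

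SR proteins bind exonic sequences through RNA recognition motifs and recruit splicing components through domains rich in arginine and serine. The hnRNPs coat nascent transcripts and often act against SR proteins at the same exons. The snRNP proteins include the Sm proteins, which form a ring on the spliceosomal small nuclear RNAs, and proteins particular to the U1 and U2 particles, while SF3a and SF3b are parts of the U2 particle that hold the branch point of the intron. FAM172A itself has been described as a nuclear protein with a part in alternative splicing. The values below are of the mRNAs of these genes, not of the proteins.

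Depth differed between the libraries. Pair 1 had 6633653 fragments in IP and 5587294 in IgG, and pair WT4 had 1631881 in IP and 360369 in IgG. The number of genes detected was 11584 in the pair 1 IP, 13391 in the pair 1 IgG, 17693 in the WT4 IP and 9310 in the WT4 IgG library. Levels are given as scaled CPM, which is the authors' scaled count per 1000000 of the mean total of the pair. In that unit 1 fragment was worth 0.152 in the pair 1 IP library, 0.178 in the pair 1 IgG library, 0.674 in the WT4 IP library and 2.50 in the WT4 IgG library. The ratios of pair WT4 therefore rest on the shallowest library: the 51 genes together had 1869 fragments in the WT4 IgG library, against 32713, 29696 and 11402 in the other libraries. All 8 brown adipocyte markers, Ucp1 among them, were detected in every library, and so were all 5 skeletal muscle markers. The summed brown adipocyte markers stood at 13320, 12724, 8675 and 3924 scaled CPM (pair 1 IP, pair 1 IgG, WT4 IP and WT4 IgG), and the summed muscle markers at 31952, 26796, 6399 and 4591. Endothelial markers summed to 689, 1685, 1848 and 1392 scaled CPM, the 4 blood markers to 129, 265, 60.6 and 2.50, and 3 macrophage markers to 37.7, 22.6, 45.9 and 27.5. Of the 4 markers of neurons and Schwann cells, all were at 0 in the pair 1 IP library, and their sum in the others was 14.4, 41.1 and 99.97. The part of cell makeup in the ratios was not tested, and in bulk tissue fewer cells of a type and less RNA per cell cannot be told apart.

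Many of these genes share near-identical stretches with other annotated genes, which bears on how far their counts can be trusted. In the GENCODE transcripts, 23 of the 51 share a stretch of at least 100 bases at 95% identity or more with another annotated gene, on the same strand, and for 17 of them the closest such gene is a processed pseudogene, a copy of a spliced mRNA put back into the genome. The 23 are 9 of the 12 snRNP protein genes, 10 of the 20 hnRNPs, 3 of the 11 SR proteins and 1 of the 8 SF3 genes. For Hnrnpd, Hnrnpm, Hnrnpul2, Snrpa1, Snrpn and Srsf3 the closest match is annotated as protein-coding and need not be a copy. That of Hnrnpm is March2, with which its listed locus is merged, that of Snrpn is a gene also named Snrpn, and that of Hnrnpd spans 101 bases. All 23 are counted below as having a near-identical copy. The tables list protein-coding genes, so fragments from a processed pseudogene have no row of their own, and how the authors' counting shared them out is unknown here. A further uncertainty is that 13 of the 51 have a listed locus merged with other genes, and 22 have neither feature. The first 120 coding bases of 3 genes with extreme ratios are shown beside their closest copy, with the bases that differ between gene and copy in capitals (sequences from GENCODE vM21, GRCm38, 5′ to 3′ on the coding strand).
Hnrnpa1: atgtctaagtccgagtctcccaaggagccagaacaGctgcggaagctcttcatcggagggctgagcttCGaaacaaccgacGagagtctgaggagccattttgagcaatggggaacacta
Hnrnpa1l2-ps2: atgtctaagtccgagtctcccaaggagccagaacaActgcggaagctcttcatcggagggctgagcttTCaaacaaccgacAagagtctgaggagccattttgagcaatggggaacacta
Hnrnpf: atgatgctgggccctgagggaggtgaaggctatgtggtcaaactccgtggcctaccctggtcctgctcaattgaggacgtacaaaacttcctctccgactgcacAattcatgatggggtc
Gm6430: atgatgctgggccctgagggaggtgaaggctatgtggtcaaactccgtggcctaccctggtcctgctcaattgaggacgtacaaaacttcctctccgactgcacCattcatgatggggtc
Snrpe: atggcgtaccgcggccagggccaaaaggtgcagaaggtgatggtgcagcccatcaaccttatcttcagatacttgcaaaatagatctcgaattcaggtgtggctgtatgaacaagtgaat
Snrpert: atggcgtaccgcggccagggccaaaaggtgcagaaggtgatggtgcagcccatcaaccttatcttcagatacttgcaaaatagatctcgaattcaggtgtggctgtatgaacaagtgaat
Hnrnpa1 (chromosome 15, 103240432 to 103246692, plus strand) and Hnrnpa1l2-ps2 (chromosome 15, 22713868 to 22714830, minus strand) differ at 4 of these 120 bases and are 97.74% identical over an aligned stretch of 752. Hnrnpf (chromosome 6, 117900324 to 117925622, plus strand) and Gm6430 (chromosome 1, 97024681 to 97025928, plus strand) differ at 1 of the 120 and are 99.28% identical over 1248 aligned bases, about the whole coding sequence of the gene. Snrpe (chromosome 1, 133603871 to 133610291, minus strand) and Snrpert (chromosome 2, 131322088 to 131322366, minus strand) are the same at all 120 bases and 98.92% identical over 279. A read that lies wholly within bases shared by gene and copy can fit either. A read over a differing base can in principle be told apart, and the placing of reads was not examined.

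Together the 51 genes took 0.493% (IP) and 0.531% (IgG) of the scaled total in pair 1, then 0.699% and 0.519% in pair WT4. Between genes, levels can be compared only per length, in FPKM. The hnRNPs and SR proteins stood above the SF3 subunits, and the snRNP proteins were lowest, in all 4 libraries. In the pair 1 IP library the class medians were 45.7 FPKM for SR proteins, 42.1 for hnRNPs, 18.6 for the SF3 complex and 4.005 for snRNP proteins. In the pair 1 IgG library they were 33.1, 62.5, 12.9 and 3.63 in that order, in the WT4 IP library 43.1, 58.6, 11.4 and 5.15, and in the WT4 IgG library 41.8, 34.8, 7.23 and 0. SR proteins and hnRNPs thus changed places between libraries, and these are medians of groups whose members overlap widely. All tested genes had a median of 3.73, 4.83, 5.07 and 2.66 FPKM in the same libraries.

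**Figure D1:**
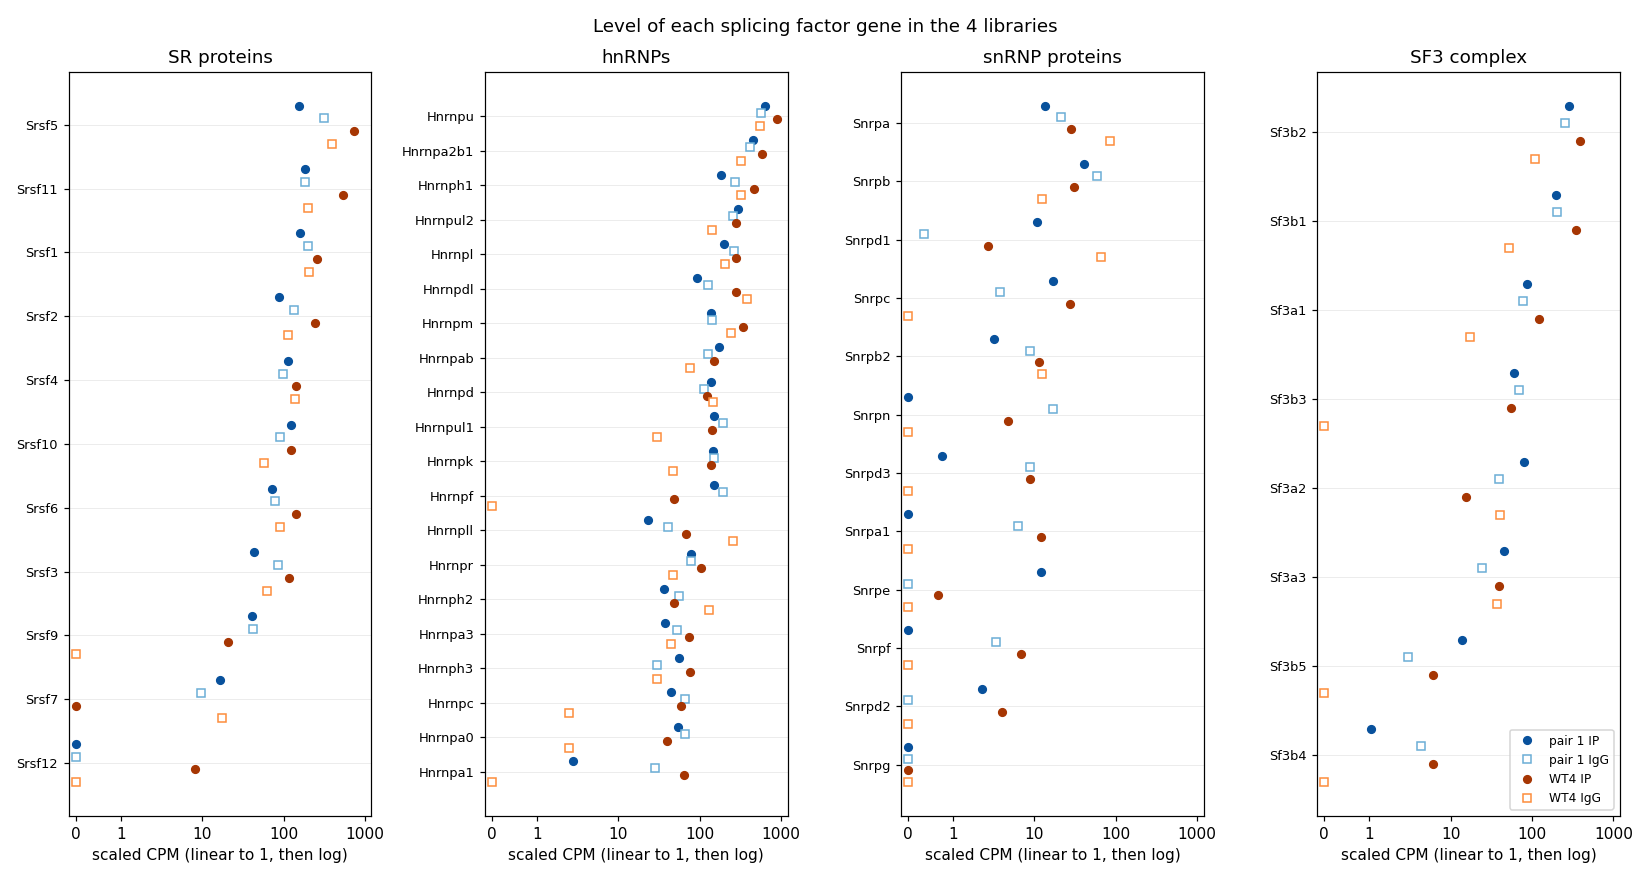
Level of each of the 51 genes in scaled CPM (horizontal axis, linear up to 1 and logarithmic above) in pair 1 (blue) and pair WT4 (orange and brown), with filled circles for IP and open squares for IgG, 1 panel per class. Genes are sorted by mean level within a class, and the 4 points of 1 gene are set apart vertically for legibility. In most SR protein and hnRNP rows the 4 points lie close together, whereas snRNP protein rows spread from 0 to well above 10 scaled CPM.

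The most abundant of these mRNAs were those of hnRNPs and of 2 SR proteins. Hnrnpu, also known as scaffold attachment factor A, stood at 190 and 176 FPKM in pair 1 and at 188 and 92.3 FPKM in pair WT4 (IP and IgG). Hnrnpa2b1, which binds and sorts many transcripts, stood at 185, 151, 163 and 105 FPKM. Srsf5, an SR protein, led the WT4 IP library at 276 FPKM and stood at 98.3, 137 and 113 FPKM in the other libraries (pair 1 IP, pair 1 IgG and WT4 IgG). Hnrnpl, which binds CA-rich RNA, led both IgG libraries, with 176 and 248 FPKM. No gene therefore led in all 4 libraries, and each library had 1 value per gene, so neighbours in this order cannot be told apart by a spread.

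The order of the genes by level was alike in the libraries, and least so where the WT4 IgG library entered. Over the 50 tested genes, Spearman's rho of scaled CPM was 0.94 between IP and IgG of pair 1, 0.80 between IP and IgG of pair WT4, 0.89 between the 2 IP libraries and 0.73 between the 2 IgG libraries. Over all 16217 tested genes the same values were 0.83, 0.55, 0.75 and 0.46. These are descriptions across genes, which share library depth and gene length and are not independent replicates.

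The question put by the design is which of these mRNAs were recovered more with the antibody than with IgG. In pair 1, 37 of 50 lay within 2-fold of IgG, and in pair WT4 their median ratio lay above 0 by about as much as that of all genes. That likeness depends on the setting. The WT4 medians were 0.68 and 0.01 with genes at 0 at the bound described below, and 0.87 and 0.46 among genes of at least 100 scaled CPM. The ratio is the difference of log2(scaled CPM + 1), IP minus IgG, within a pair. The added 1 understates changes of low genes with fragments in both libraries. In pair WT4 it is less than the worth of 1 IgG fragment (2.50 scaled CPM). Low genes at 0 in that library can therefore have a ratio beyond their bound, as Snrpd2 has (ratio 2.33, bound 0.539). A gene was counted at a 2-fold line, since 1 library per group within a pair allows no test. Of the 51 genes, 50 had a mean of at least 1 scaled CPM and were tested, while Snrpg, an Sm protein gene with a near-identical copy, was listed at 0 in all 4 libraries. In pair 1, 6 of the 50 were at least 2-fold higher in IP, against 13.3% of all tested genes, and 7 were at least 2-fold lower, against 26.9%. In pair WT4, 26 were at least 2-fold higher, against 51.6% of all tested genes, and 6 were at least 2-fold lower, against 19.3%. The median ratio of the 50 was -0.08 in pair 1 and 1.11 in pair WT4, where the medians of all tested genes were -0.03 and 1.17. Centred on the median of all genes, the median of the 50 in pair WT4 came to -0.06, so its direction depends on that choice. The WT4 median differed with level: it was 2.51 for tested genes under 20 scaled CPM and 0.46 for those of at least 100. Centred values of abundant genes, here and below, therefore do not compare them with genes of their own level. With each gene at 0 in a library set to its bound against a floor of 3 fragments, and to 0 where the bound was under 1, 18 of the 50 were at least 2-fold higher in pair WT4 and 6 lower, against 26.5% and 19.3% of all tested genes treated alike. The WT4 median of the 50 was then 0.68, and that of all tested genes 0.01.

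Across both pairs 3 of the 50 genes exceeded IgG at least 2-fold in IP each time, namely Snrpc, Snrpd2 and Sf3b5, against 7.19% of all tested genes. With genes at 0 at their bound only Snrpc stayed past 2-fold in both, against 2.87%. None was at least 2-fold lower in both, against 5.25%, and 8 went at least 2-fold in opposite directions, against 17.3%. At their bounds 3 of these 8 (Hnrnpa1, Snrpd1 and Sf3a2) stayed past 2-fold both ways, against 9.05%. Counting changes of any size, 15 were higher in both pairs, 5 were lower in both and 29 went opposite ways, where the shares of all tested genes were 23.3%, 16.1% and 44.9%. At the 2-fold line without bounds the counts lie near or under the background shares, and at any size those of higher in both and of opposite directions lie above them. All tested genes include some with a ratio of exactly 0 in a pair, which fall in none of these groups and lower the shares. Of the 18 described genes of at least 100 scaled CPM, 7 were higher in both pairs, 1 was lower in both and 10 went opposite ways. The same counts for the 1906 tested genes at that level were 620, 325 and 961. Spearman's rho between the ratios of the 2 pairs was -0.17 over the 50 genes and -0.01 over all tested genes. A fit of IP against IgG with the pair as a block called 0 of the 50 (edgeR's quasi-likelihood test, Benjamini-Hochberg adjustment over all 16217 genes), against 0.00617% of all tested genes called higher and 0.0% called lower. None of the 50 reached an unadjusted p under 0.05 in that edgeR fit, against 0.857% of all tested genes higher and 0.592% lower, and DESeq2 and limma called 0 of the 50 as well. With 1 residual degree of freedom and the spread pooled across genes, the p-values measure only the spread between these samples, which may be technical, and a p that misses the threshold does not show that IP and IgG were alike.

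**Figure D2:**
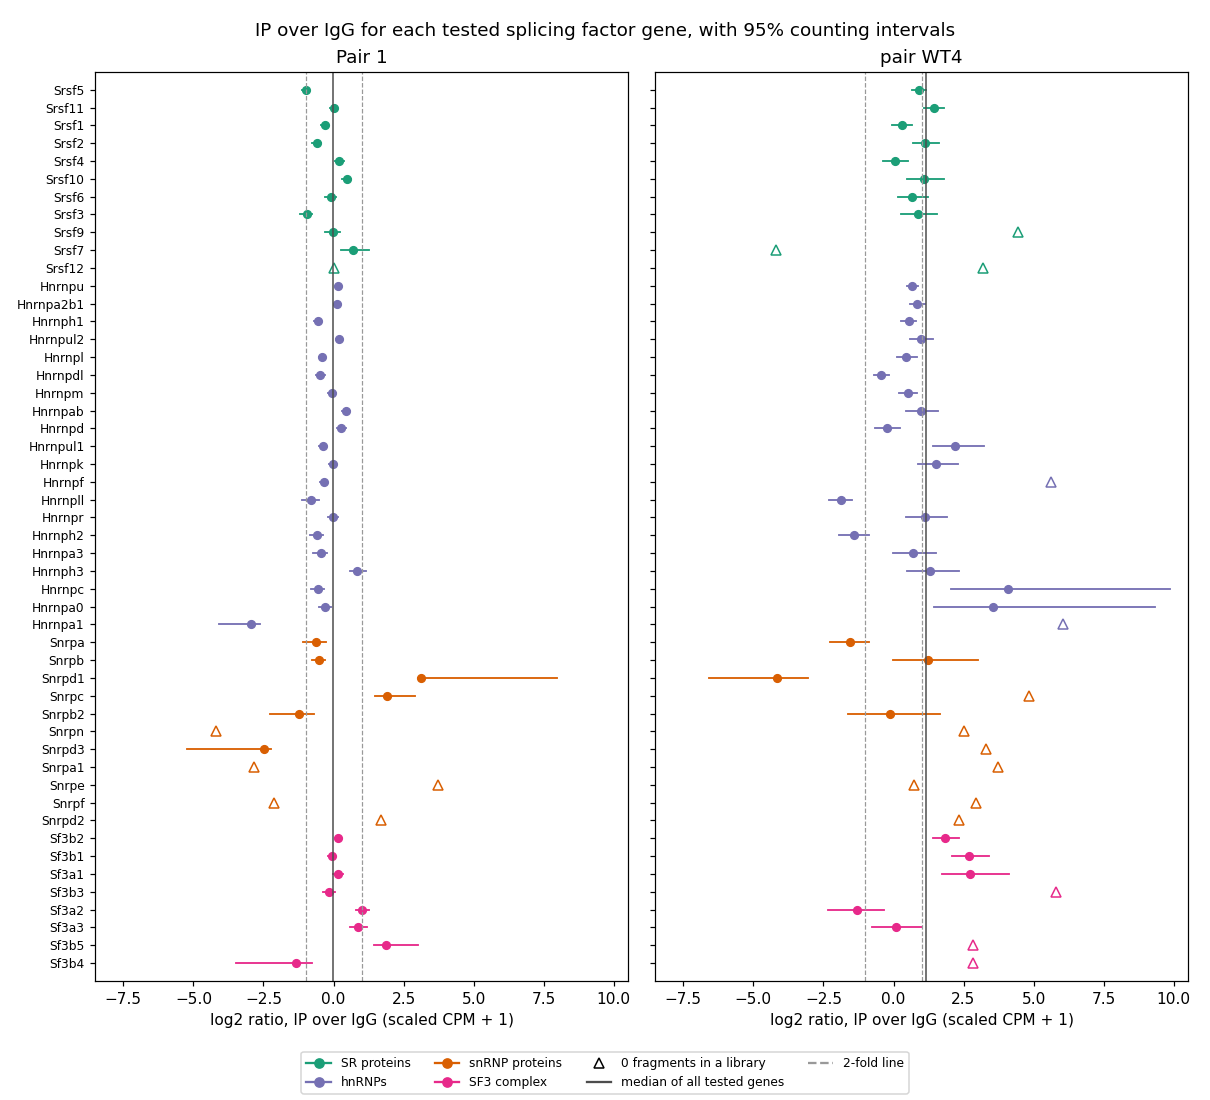
Log2 ratio of IP over IgG (horizontal axis, scaled CPM + 1) of the 50 tested genes in pair 1 (left) and pair WT4 (right), with 95% Clopper-Pearson counting intervals. Open triangles are genes at 0 fragments in a library, which have no closed interval; the solid line is the median of all tested genes and the dashed lines mark 2-fold. SR proteins and hnRNPs lie near the median line in pair 1, and in pair WT4 most points of all 4 classes lie right of 0, around a median of 1.17 for all genes.

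The 18 of these genes with a mean of at least 100 scaled CPM give the firmest ratios. In pair 1, 0 of the 18 were past 2-fold in either direction by the ratio, against 2.73% higher and 8.08% lower of the 1906 genes at that level. Srsf5, with a ratio of -0.997, lay at the line. In pair WT4, 6 of the 18 were at least 2-fold higher and 0 lower, against 30.0% and 5.51%. Their medians were -0.05 and 0.87, and those of the 1906 genes were -0.05 and 0.46. Every one of the 18 was detected in all 4 libraries. Below 20 scaled CPM, 11 of the 13 tested genes described here were at 0 in at least 1 library, as were 7626 of all 8536 tested genes at that level. Over all levels the same held for 15 of the 50, against 57.0% of all tested genes. By library, 4 of the 50 were at 0 in the pair 1 IP library, 3 in the pair 1 IgG library, 1 in the WT4 IP library and 14 in the WT4 IgG library, against 30.0%, 20.1%, 3.13% and 43.0% of all tested genes.

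The SR proteins are the class whose median ratio lay closest to 0 in pair 1. None of the 11 was at least 2-fold higher or lower there, with a median of -0.03 and a range from -0.997 (Srsf5) to 0.71 (Srsf7). In pair WT4, 5 were at least 2-fold higher and 1 was at least 2-fold lower, against 51.6% and 19.3% of all tested genes, with a median of 0.90, or -0.27 when centred on all genes. Srsf5 had 1032 IP and 1759 IgG fragments in pair 1, then 1089 and 157 in pair WT4. Its IgG level was the higher in pair 1 and its IP level in pair WT4, with ratios of -0.997 (95% counting interval -1.11 to -0.89) and 0.90 (0.66 to 1.15). Srsf11, an SR protein with roles in splice site choice, had 1216 and 1026 fragments, then 792 and 79, and ratios of 0.01 (-0.11 to 0.13) and 1.43 (1.10 to 1.79). Srsf1, the founding member of the family, had 1065 and 1124, then 381 and 83, with ratios of -0.31 and 0.31. Its WT4 interval, from -0.04 to 0.67, held 0, and lay under the median of all genes.

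Srsf2, a protein of nuclear speckles better known as SC35, had 582 and 747 fragments in pair 1, then 366 and 45 in pair WT4. Its ratios were -0.59 and 1.13, the latter -0.05 once pair WT4 is centred on all genes, and its listed locus is merged with those of Jmjd6, Mettl23 and Mfsd11. Srsf3, the smallest SR protein and an mRNA export adaptor, had 288 and 479, then 172 and 25, with ratios of -0.95 and 0.88. Of the 11 SR proteins, 7 went opposite ways in the pairs at any size, against 44.9% of all tested genes. Srsf10, known as a splicing repressor in its dephosphorylated form, had 823 and 505, then 185 and 23, and was higher in IP in both pairs (0.47 and 1.10), although the WT4 value is -0.07 when centred. Srsf4 had 753 and 553, then 212 and 55, with ratios of 0.21 and 0.05, and Srsf6 had 481 and 438, then 212 and 36, with ratios of -0.10 and 0.66. In FPKM, Srsf6 was past 2-fold higher in IP in both pairs, with 66.7 and 27.7 in pair 1 and 43.1 and 13.6 in pair WT4. Srsf3, Srsf5 and Srsf10 are the SR protein genes with near-identical stretches elsewhere, and Srsf2 is the 1 with a merged locus.

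The widest SR protein ratios were those with few or no fragments in a WT4 library. Srsf7, an SR protein with a zinc knuckle that also serves mRNA export, had 109 and 55 fragments in pair 1, then 0 IP and 7 IgG fragments in pair WT4. Against a floor of 3 fragments it was at least 8.66-fold lower in IP in pair WT4, while in pair 1 it was 1.70-fold higher. Here and below, such a bound takes the fragments of the other library as exact, and a counting interval can reach past it. That of Srsf7 in pair WT4 ends at -2.42 on the log2 scale, a smaller difference than the bound. It was the 1 gene of the 50 at 0 in the WT4 IP library, the library with the most detected genes. Srsf9 had 274 and 239 fragments, then 31 and 0, a ratio of -0.03 in pair 1 and a WT4 fold of at least 2.79. Srsf12 had 12 fragments, all in the WT4 IP library.

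Among the 20 hnRNPs, ratios in pair 1 were mostly slightly under 0. Of the 20, 6 were higher and 14 lower in IP at any size. Of all tested genes 34.6% were higher and 51.2% lower, and the rest had a ratio of 0. Of the 1906 tested genes of at least 100 scaled CPM, 869 were higher and 1037 lower. The median of the 20 was -0.32, and only Hnrnpa1 was past 2-fold. In pair WT4, 8 were at least 2-fold higher and 2 at least 2-fold lower, against 51.6% and 19.3% of all tested genes, with a median of 0.91, or -0.26 when centred on all genes. Hnrnpu (ENSMUSG00000039630, chromosome 1, 178321108 to 178337797, minus strand) had 4243 IP and 3222 IgG fragments in pair 1, then 1315 and 222 in pair WT4. IP was the higher in both, by 1.12-fold and 1.59-fold, and the ratios were 0.16 (0.10 to 0.23) and 0.67 (0.47 to 0.89). The WT4 interval lay above 0 and under the median of all genes. Hnrnpa2b1 had 2973 and 2335, then 857 and 129, with ratios of 0.12 (0.04 to 0.19) and 0.84 (0.57 to 1.12). Hnrnpul2, a relative of Hnrnpu, had 1955 and 1454, then 411 and 56, with ratios of 0.19 and 0.98. These 3 abundant genes were higher in IP in both pairs before centring. In pair WT4 each lay under the median of all tested genes and above that of the 1906 genes of at least 100 scaled CPM, which was 0.46.

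Hnrnph1, which binds runs of guanine, had 1214 and 1534 fragments in pair 1, then 689 and 128 in pair WT4, with ratios of -0.57 and 0.54. In FPKM its WT4 levels were 186 in IP and 189 in IgG, so the WT4 direction turns with the unit. Hnrnph3, of the same subfamily, had 363 and 169, then 113 and 12. It was higher in IP in both pairs, by 1.83-fold and 2.54-fold, and had the highest hnRNP ratio of pair 1, at 0.85 (0.60 to 1.14). Hnrnph2, the third of this subfamily, had 240 and 311, then 72 and 52, and was lower in IP in both, by 1.52-fold and 2.68-fold. Subfamily members thus went different ways, and Hnrnph2 has a near-identical copy while Hnrnph3 has a locus merged with Rufy2.

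Hnrnpll, known for its part in CD45 alternative splicing in lymphocytes, was the lowest hnRNP of pair WT4. It had 152 IP and 227 IgG fragments in pair 1, then 100 and 101 in pair WT4, so the much shallower WT4 IgG library gave it as many fragments as its IP library. IgG was the higher in both pairs, by 1.76-fold and 3.75-fold, with ratios of -0.79 (-1.12 to -0.51) and -1.89 (-2.32 to -1.49). The mean ratio was -1.34 ± 0.78 (SD, n = 2 pairs), and it did not pass (edgeR, adjusted p = 1.0). It has neither a near copy nor a merged locus. The others lower in IP in both pairs at any size were Hnrnph2, Hnrnpdl, Snrpa and Snrpb2.

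Hnrnpl, Hnrnpm, Hnrnpul1 and Hnrnpk lay within 2-fold in pair 1. Hnrnpl had 1316 and 1492 fragments, then 414 and 81, and Hnrnpm, which binds GU-rich RNA, had 910 and 807, then 508 and 96, with ratios of -0.41 and -0.06 in pair 1 and of 0.46 and 0.51 in pair WT4. Hnrnpul1 had 982 and 1087, then 210 and 12, with ratios of -0.38 and 2.20 (1.40 to 3.21), the highest WT4 value among hnRNPs with at least 10 fragments in both libraries. Hnrnpk, a poly(C)-binding protein, had 974 and 848, then 207 and 19, with ratios of -0.03 and 1.53. Both of these lay above the median of all genes in pair WT4.

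Hnrnpd, known as AUF1 and for its part in the decay of AU-rich mRNAs, had 910 and 637 fragments, then 184 and 58, with ratios of 0.28 and -0.22. Its relative Hnrnpdl had 607 and 717, then 415 and 152, and was lower in IP in both pairs, with ratios of -0.47 (-0.63 to -0.31) and -0.44 (-0.71 to -0.16). Hnrnpab, of the same subfamily, had 1131 and 711, then 221 and 30, and was higher in both before centring, at 0.43 and 0.98. By scaled CPM the 3 relatives thus differed in direction, although the WT4 interval of Hnrnpd (-0.66 to 0.23) held 0. In FPKM, Hnrnpd was lower in IP in both pairs (-0.99 and -1.04), as was Hnrnpdl (-0.81 and -0.15). Hnrnpr had 517 and 444, then 155 and 19, and a WT4 ratio of 1.12 that is -0.05 when centred, and Hnrnpa3 had 249 and 294, then 109 and 18. Of the 20 hnRNPs, Hnrnpa1, Hnrnpa3, Hnrnpc, Hnrnpd, Hnrnpf, Hnrnph2, Hnrnpk, Hnrnpm, Hnrnpr and Hnrnpul2 share near-identical stretches with another annotated gene. Hnrnpab, Hnrnpf, Hnrnph3, Hnrnpk, Hnrnpm and Hnrnpu have merged loci.

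The extreme hnRNP values came from genes with 0 or 1 fragment in the WT4 IgG library. Hnrnpa1, which represses splice sites and has many pseudogenes, had 19 IP and 160 IgG fragments in pair 1, then 96 and 0 in pair WT4. It was 10.1-fold lower in IP in pair 1 and at least 8.62-fold higher in pair WT4, the widest swing among the hnRNPs, and the closest of its copies is shown above. Hnrnpf, the other gene printed above among the hnRNPs, had 993 and 1076, then 71 and 0. It lay close to equal in pair 1 (-0.35), and was at least 6.38-fold higher in pair WT4. Hnrnpf was among 2 of the 29 genes with a mean of at least 50 scaled CPM in the other libraries with 0 fragments in the WT4 IgG library, against 9.87% of all such genes. Hnrnpc, which binds uridine tracts, had 291 and 368, then 87 and 1, and Hnrnpa0 had 356 and 371, then 59 and 1. With 1 IgG fragment their WT4 ratios of 4.09 and 3.54 have counting intervals from 2.04 to 9.87 and from 1.46 to 9.32.

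**Figure D3:**
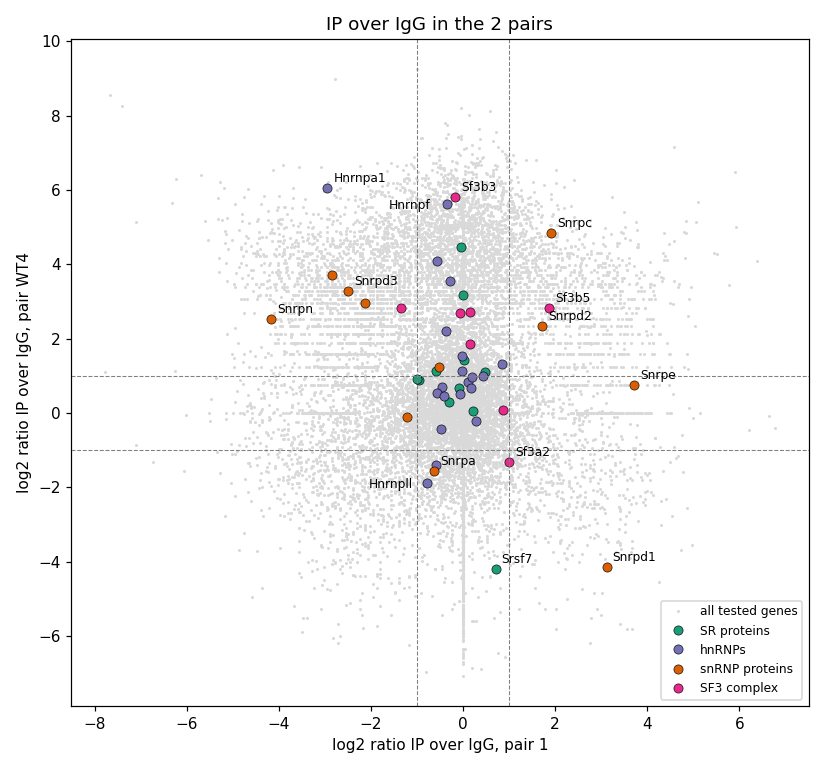
Log2 ratio of IP over IgG of each of the 50 tested genes in pair WT4 (vertical axis) against that in pair 1 (horizontal axis), coloured by class, with named genes labelled and dashed lines at 2-fold. Grey points are all tested genes. Among the coloured points, only Snrpc, Snrpd2 and Sf3b5 lie past 2-fold on the upper right, and 8 genes lie past 2-fold in opposite quadrants, 3 of them also with genes at 0 at their bound.

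The snRNP proteins had the fewest fragments and the widest ratios of the 4 classes. The 12 genes together held 660 and 724 fragments in pair 1, then 205 and 70 in pair WT4. Of the 11 tested, 4 were at least 2-fold higher and 5 at least 2-fold lower in pair 1, with a median of -0.63, and 7 were higher and 2 lower in pair WT4, with a median of 2.33. The shares of all tested genes were 13.3% and 26.9% in pair 1 and 51.6% and 19.3% in pair WT4. In FPKM the medians of the class were -1.68 and 1.30, and with a pseudocount of 5 the WT4 median was 0.96. Tested genes under 20 scaled CPM, the level of most of this class, had medians of 0 and 2.51. With genes at 0 at their bound the WT4 median of the class was 0, and 2 genes were higher and 2 lower, against 26.5% and 19.3% of all tested genes treated alike. With at least 10 fragments in both libraries of a pair the WT4 median rests on Snrpa alone, at -1.55. Without the genes that share a locus (Snrpa, Snrpf and Snrpn) the pair 1 median turned to 0.59. Snrpb, Snrpb2 and Snrpd3 are the genes of this class with neither a near-identical copy nor a merged locus.

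Of the proteins particular to the U1 particle, Snrpa and Snrpc went different ways. Snrpc (the C protein of U1, which helps it contact the 5′ splice site; ENSMUSG00000024217, chromosome 17, 27838150 to 27851968, plus strand) was covered by 111 fragments in IP and 21 in IgG of pair 1, then 41 and 0 in pair WT4. IP was the higher in both pairs, by 4.50-fold in pair 1 (ratio 1.91, 1.49 to 2.92) and by at least 3.68-fold against the floor in pair WT4. The WT4 counting interval starts lower, at 1.52 on the log2 scale. Its mean ratio was 3.37 ± 2.07 (SD, n = 2 pairs), it did not pass (edgeR, adjusted p = 1.0), and it has 3 annotated genes with near-identical stretches. Snrpa (the A protein of U1) had 89 and 120, then 42 and 34, and was lower in IP in both pairs, by 1.58-fold and 3.0-fold. Of the U2 proteins, Snrpb2 had 21 and 49, then 17 and 5, and Snrpa1 0 and 35, then 18 and 0. Snrpa1 was at least 13.7-fold lower in IP in pair 1, and its WT4 bound is 1.62-fold higher.

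The Sm genes, whose proteins form a single ring, did not all lie on 1 side. Of the 6 tested, 3 were at least 2-fold higher and 2 at least 2-fold lower in IP in pair 1, against 13.3% and 26.9% of all tested genes. In pair WT4, 4 were higher and 1 lower, against 51.6% and 19.3%. Snrpb, which codes for SmB, was the most abundant in FPKM in every library but the WT4 IgG library, where Snrpd1 led. It had 268 and 332 fragments, then 46 and 5, and ratios of -0.53 and 1.25. Snrpd1 had 71 IP and 2 IgG fragments in pair 1, then 4 and 26 in pair WT4. It was 30.2-fold higher in IP in pair 1 and 24.1-fold lower in pair WT4, so the order of IP and IgG was opposite, with counting intervals of 3.01 to 7.99 and -6.57 to -3.06 on the log2 scale. Snrpd3 had 5 and 50, then 13 and 0, and its WT4 bound is 1.17-fold higher, while its WT4 counting interval starts at -0.28 on the log2 scale. Snrpe had 80 and 0, then 1 and 0, at least 22.7-fold higher in IP in pair 1, and its copy is the same over the bases shown above.

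Snrpd2 (SmD2) had 15 IP and 0 IgG fragments in pair 1, then 6 and 0 in pair WT4. Its IP level in pair 1 exceeded the IgG floor 4.26-fold, and its counting interval there starts at 1.61 on the log2 scale. In pair WT4 the floor of 3 IgG fragments lies above its IP level (a bound of 0.539), so a difference was not detectable at this depth although its ratio was 2.33. Snrpf had 0 and 19, then 10 and 0, with a WT4 bound of 0.899. Snrpn, which stands in for SmB in the brain, had 0 and 96, then 7 and 0, and shares its locus with Snurf, encoded on the same transcript. It was at least 37.6-fold lower in IP in pair 1, and its WT4 bound of 0.629 is under 1, so nothing can be said of a difference there. In pair 1, 1 of the 6 tested Sm genes was at 0 in IP (Snrpf) and 2 were at 0 in IgG (Snrpd2 and Snrpe). In pair WT4, 4 were at 0 in IgG, the shallowest library, and 0 in IP. Of the 8536 tested genes under 20 scaled CPM, 4417, 3027, 5856 and 490 were at 0 in these libraries, in that order.

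The SF3 complex had a median ratio of 0.16 in pair 1 and 2.71 in pair WT4, the latter 1.53 when centred on all genes. In FPKM the medians were 0.04 and 1.63. Its place among the classes depends on the settings, since with a pseudocount of 0.5 its WT4 median was 2.73 and that of snRNP proteins 3.18. Of its 8 genes, 2 were at least 2-fold higher and 1 lower in pair 1, against 13.3% and 26.9% of all tested genes, and 6 were higher and 1 lower in pair WT4, against 51.6% and 19.3%. Members with at least 10 fragments in both libraries gave a WT4 median of 0.97, as did the whole class with genes at 0 at their bound. At the bound 4 genes were higher and 1 lower, against 26.5% and 19.3% of all tested genes treated alike. Sf3b1, the subunit that holds the branch point adenosine in place (ENSMUSG00000025982, chromosome 1, 54985169 to 55027481, minus strand), had 1282 IP and 1144 IgG fragments in pair 1, then 511 and 21 in pair WT4. IP and IgG of pair 1 were close, with a ratio of -0.07 (-0.18 to 0.05), and IP was 6.56-fold higher in pair WT4, with a ratio of 2.69 (2.09 to 3.42). This WT4 interval lay above the median of all genes. Across both pairs Sf3b1 had the smallest p of the 50 genes, and it did not pass (edgeR, unadjusted p = 0.0741, adjusted p = 1.0, mean ratio 1.31 ± 1.95, SD, n = 2 pairs).

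Sf3b2, a subunit near the branch site, had 1855 and 1419 fragments, then 579 and 43, with ratios of 0.15 (0.05 to 0.25) and 1.85 (1.41 to 2.34). In FPKM it was the most abundant SF3 gene in every library but the WT4 IgG library, where Sf3a1 led. Sf3b3 had 401 and 384, then 82 and 0, for a ratio of -0.17 in pair 1 and a WT4 fold of at least 7.37, and its locus is merged with those of Cog4, Fuk and St3gal2. Sf3a1, the largest subunit of SF3a, had 578 and 440, then 180 and 7, with ratios of 0.16 and 2.72. In FPKM its levels were 13.3 and 18.1 in pair 1 and 16.1 and 47.4 in pair WT4, so that both directions turned with the unit. Sf3b1, Sf3b2 and Sf3b3 were each within 2-fold in pair 1 and past it in pair WT4.

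The other subunits of SF3 did not follow these. Sf3a2 had 526 and 220, then 23 and 16, and was 2.03-fold higher in IP in pair 1 and 2.58-fold lower in pair WT4. Sf3a3 had 295 and 135, then 59 and 15, and ratios of 0.87 (0.60 to 1.2) and 0.08 (-0.75 to 1.01). Sf3b4 had 7 and 24, then 9 and 0, with a WT4 bound of 0.809, and shares a merged locus of many histone and other genes. Sf3b5, the smallest subunit (ENSMUSG00000078348, chromosome 10, 13005343 to 13009183, plus strand), had 91 and 17 fragments, then 9 and 0. Pair 1 gave a 4.56-fold difference, with IP the higher (ratio 1.88, 1.43 to 3.03). In pair WT4 its bound of 0.809 is under 1, so a difference was not detectable at this depth. Of the 3 genes past 2-fold in both pairs it is the 1 without a near-identical copy, and with at least 10 fragments in both libraries of both pairs none of the 3 remains.

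The unit mattered for few members in direction. In FPKM the ratio had the opposite sign to that in scaled CPM for 4 of the 50 genes in pair 1 (Hnrnpd, Hnrnpk, Sf3a1 and Srsf6) and for 5 in pair WT4 (Hnrnph1, Hnrnpl, Sf3a1, Sf3a3 and Srsf4). That is 8.0% and 10% of them, against 7.63% and 6.06% of all tested genes. In size more ratios changed, since 41 of the 100 ratios of the 2 pairs moved out of their counting interval in FPKM. The 1 added before the log weighs differently in each unit, and its part in this and in the gaps that follow was not tested. The median absolute gap on the log2 scale was 0.21 in pair 1 and 0.61 in pair WT4, against 0.23 and 0.66 for all tested genes. Among genes with at least 10 fragments in both libraries, the widest gaps were those of Hnrnpa3, which had 7.59 and 41.1 FPKM in pair 1 on 249 and 294 fragments, and of Hnrnpl, which had 95.5 and 248 FPKM in pair WT4 on 414 and 81 fragments. For both, FPKM put IgG well above IP, where scaled CPM gave log2 ratios of -0.46 and 0.46.

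**Figure D4:**
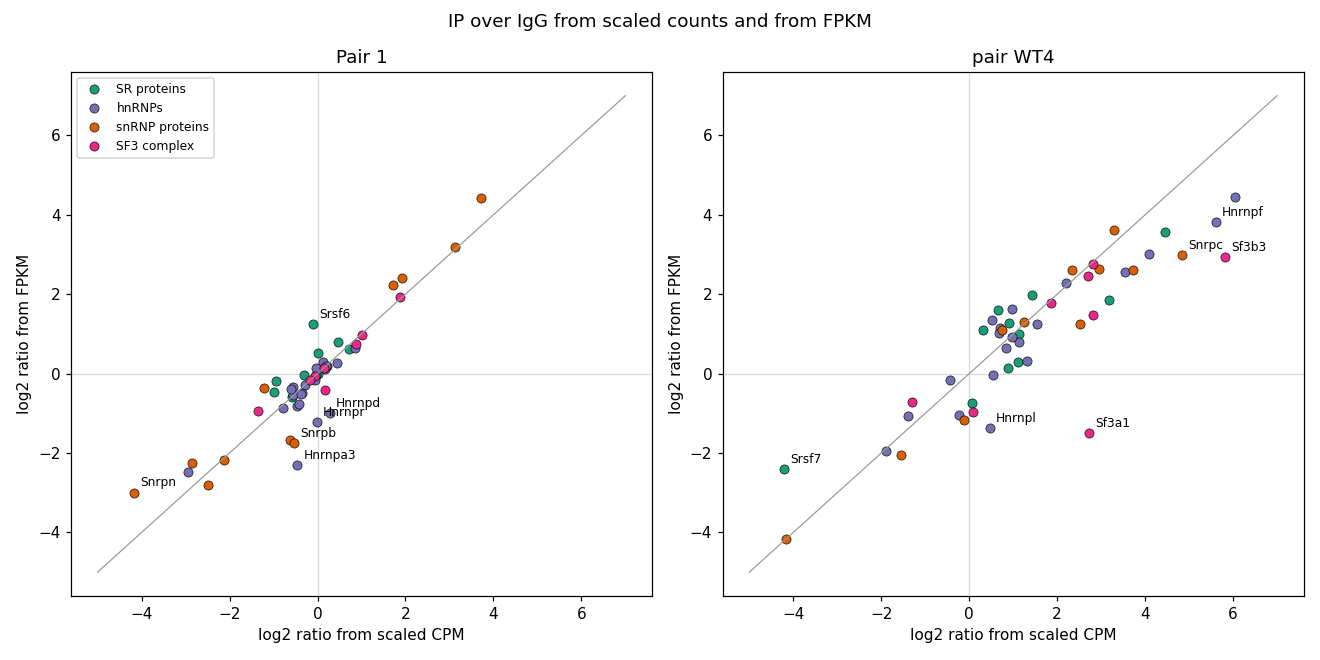
Log2 ratio of IP over IgG from FPKM + 1 (vertical axis) against that from scaled CPM + 1 (horizontal axis) for the 50 tested genes, in pair 1 (left) and pair WT4 (right), with the 1:1 line drawn and outlying genes named. The median gap between the 2 units was 0.21 on the log2 scale in pair 1 and 0.61 in pair WT4. Hnrnpa3 in pair 1 and Sf3a1 and Hnrnpl in pair WT4 lie well under the line.

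Annotation set the classes apart in ways the choice by name did not use. The median coding length was 786 bases for SR proteins, 1304 for hnRNPs, 368 for snRNP proteins and 1938 for the SF3 complex, against 1368 for the 16020 tested genes with a match. Snrpn entered at 213 bases, from an entry without a transcript typed as protein-coding, while another gene of that name is annotated as protein-coding. Its length, its place among the short genes below and the median of its class are therefore uncertain. A transcript annotated as a target of nonsense-mediated decay exists for 9 of the 11 SR protein genes, 10 of the 20 hnRNPs, 5 of the 12 snRNP protein genes and 1 of the 8 SF3 genes, against 24.6% of tested genes. SR proteins and hnRNPs are known to limit their own levels through such transcripts, and the tables, which hold 1 value per gene, cannot tell those transcripts from coding ones. Short genes were more often at 0 in the WT4 IgG library: 56.2% of tested genes with a coding length under 500 bases were at 0 there, against 37.9% of those of at least 1000. Of the members, 6 of 8 and 4 of 27 were at 0 there in these classes of length. The part of gene length in the snRNP protein ratios was not tested.

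Other genes of the spliceosome and its regulators were taken from 7 lists with 105 listed genes, of which 103 were tested. In pair 1, 14 were at least 2-fold higher and 20 at least 2-fold lower in IP (median 0.02), against 13.3% and 26.9% of all tested genes. In pair WT4, 55 were higher and 6 lower (median 1.26), against 51.6% and 19.3%. In both pairs 9 were higher and 3 lower by the ratio, against 7.19% and 5.25%. The counts of the single lists below are by the same ratio and are to be read against these shares. Of the 103 genes 0 were called (edgeR with Benjamini-Hochberg adjustment), with 1 gene, the SR protein kinase Clk1, at an unadjusted p under 0.05. DESeq2 and limma called 0 of them too. Of the 18 partners of U1 and U2, 5 were higher and 2 lower in pair 1 and 10 higher and 0 lower in pair WT4. Puf60, which works beside U2AF at the 3′ splice site, had 321 and 69 fragments, then 66 and 1. Snrnp35 of the minor U11/U12 particle had 116 and 45, then 18 and 2, and both genes had ratios past 2-fold in both pairs on few WT4 IgG fragments.

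Of the 17 genes of the tri-snRNP of U4, U5 and U6, 3 were higher and 3 lower in pair 1 and 7 higher and 4 lower in pair WT4. Snrnp27 was higher in both, with 147 and 36, then 38 and 0, while Txnl4a (0 and 40, then 2 and 17) and Ppih (0 and 13, then 2 and 6) were lower in both. Of the 6 tested LSm genes, which form the ring on U6 and its cytoplasmic relative, 5 were lower in pair 1 and 5 higher in pair WT4, with medians of -1.79 and 2.58, and all 6 were at 0 in at least 1 library. Of the 13 tested genes of the Prp19 complex and the catalytic step, 4 were higher and 3 lower, then 6 higher and 1 lower. Xab2 had 202 and 38, then 135 and 0, and Cdc5l 321 and 80, then 38 and 0, both higher in IP in both pairs. Bud31 had 179 and 45, then 9 and 0, so it was higher in pair 1 and a difference in pair WT4 was not detectable at this depth. Xab2, Bud31 and Txnl4a have merged loci. Dhx15, a helicase that takes spliceosomes apart, had 588 fragments in the pair 1 IgG library and 0 in the pair 1 IP library, and 1 in each WT4 library.

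The 15 SR-related proteins and SR kinases had 0 higher and 3 lower genes in pair 1 and 6 higher and 0 lower in pair WT4. Of the 28 other splicing regulators, 1 was higher and 3 were lower, then 16 higher and 1 lower. Taf15, an RNA-binding protein, was higher in both pairs, with 455 and 156, then 139 and 15. Of the 6 exon junction complex genes, 1 was higher and 1 lower, then 5 higher and 0 lower, with Magohb at 11 and 0, then 4 and 0, so it was higher in pair 1 and a difference in pair WT4 was not detectable. Fam172a itself, whose listed locus is shared with another gene, had 141 and 135 fragments, then 99 and 24, and Bdh1, the gene named in the study's title, had 27 and 0, then 31 and 0.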

How the data were processed

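Ribosomal RNA was depleted and strand-specific libraries were made, per the labels' protocols. Per the submitters' processing notes, the tools were cutadapt 1.9.3, Cufflinks, Cuffdiff and HISAT2 on mm10, and neither role nor order is stated. Which gene annotation they used is not given in the sources used. Per the file headers, the authors deposited a count and an FPKM for each library, in 1 table per pair, normalized separately, so all ratios were taken within a table. The deposited counts are scaled estimated counts: they were whole multiples of 1 step per library (0.926 and 1.09 for IP and IgG of pair 1, 0.731 and 2.71 for pair WT4), and after division 94.5% to 97.8% of the values other than 0 fell no further than 0.05 from a whole number. These fragments were rounded for the count test. All columns of sample values were used.

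Scaled CPM is the scaled count per 1000000 of the mean scaled total of the pair. Values of 1 symbol were summed, and 16217 genes with a mean of at least 1 scaled CPM were tested, with a pseudocount of 1. IP and IgG were compared with edgeR 4.0.16 (quasi-likelihood test, R 4.3.3), with a term for the pair, library sizes taken from the deposited scaling, and p-values adjusted by Benjamini-Hochberg. The residual degrees of freedom were 1 and the prior ones infinite. The pairs follow the titles and tables. DESeq2 1.42.0, limma 3.58.1 and the settings named in the closing section were alternatives, and the procedures were tested on simulated data. Counting intervals are 95% Clopper-Pearson intervals of the IP share of fragments. A fold against 0 is bounded by a floor of 3 fragments in the library at 0. The count of the other library is taken as exact, so a counting interval can reach past the bound. Neither covers more than counting error: without molecular identifiers, fragments can be copies of 1 molecule.

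Gene positions (1-based) and copies come from GENCODE vM21 on GRCm38, the assembly mm10 names, searched with BLAST 2.17.0. Genes with values in all 4 libraries were, per class, the 4 with the highest mean level, those past 2-fold the same way in both pairs, those at 0 in 1 library with at least 50 scaled CPM elsewhere, and the highest and lowest ratio per pair. Further genes of the classes were named after their values were seen. Of the other lists, those past 2-fold the same way in both pairs were named, at most 4 a list, and 1 of them is not reported here. The members and lists were chosen with earlier results of these data known.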

Additional observations from a re-analysis of the deposited data

Results flagged for a closer look

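For 8 of the 50 tested genes the ratios of the pairs lay at least 2-fold in opposite directions, against 17.3% of all tested genes. Each pair is 1 IP and 1 IgG library, and the difference between the pairs was not tested. The log2 ratio of IP over IgG in pair 1 and pair WT4 was -2.95 and 6.04 for Hnrnpa1, -2.49 and 3.29 for Snrpd3, -2.85 and 3.71 for Snrpa1, -2.13 and 2.95 for Snrpf, and -4.18 and 2.51 for Snrpn. It was -1.36 and 2.82 for Sf3b4. It ran the other way, higher in pair 1, for Snrpd1 (3.12 and -4.16) and Sf3a2 (1.01 and -1.31). Sf3a2 is the 1 gene of these with over 10 fragments in all 4 libraries. In pair WT4 the IgG library held 0 fragments of 6 of them, and against a floor of 3 fragments the fold of IP over IgG was at least 8.62 for Hnrnpa1, 1.62 for Snrpa1 and 1.17 for Snrpd3. The bounds of Snrpf (0.899), Sf3b4 (0.809) and Snrpn (0.629) are under 1, so a WT4 difference was not detectable for these. At their bounds 3 of the 8, Hnrnpa1, Snrpd1 and Sf3a2, stay past 2-fold in both pairs.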

How the results depend on the processing

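Over all genes 1 was called higher in IP and 0 lower (edgeR); DESeq2 gave 3 higher, limma 0, and the fit with no replicate block 0. Leaving out 1 library, which needs that fit, gave 0 to 6 higher and 0 to 5 lower; among the members 0 were called in each of these fits, and 0 to 4 reached an unadjusted p under 0.05, the 4 without the pair 1 IgG library. The pair block changed no call of a member. In FPKM 5 members (Sf3b5, Snrpc, Snrpd2, Snrpe and Srsf6) were 2-fold higher and 1 (Snrpa) lower in both pairs, and Sf3a1 turned to -1.50 in pair WT4. By scaled CPM the class median of SR proteins ranked 2 in the pair 1 IP, 1 in the WT4 IP and 2 in the WT4 IgG library, and by FPKM 1, 2 and 1; hnRNPs held the other place each time (1, 2 and 1, then 2, 1 and 2). Centring on all genes gave 11 members 2-fold lower in pair WT4 and 1 (Snrpb2) in both, and WT4 medians of -0.0604 (all members), -0.27 (SR proteins) and -0.26 (hnRNPs); Hnrnpr, Srsf10 and Srsf2 turned to -0.0507, -0.0700 and -0.0475. With a pseudocount of 5, 4 were 2-fold lower in pair 1. Chosen after seeing the data: with at least 10 fragments in both libraries 3 were higher and 2 lower in pair 1, 9 higher in pair WT4 and 0 higher in both, and the snRNP protein median of pair WT4 turned to -1.55. With genes at 0 at their bound 1 (Snrpc) was higher in both and the WT4 median of snRNP proteins was 0. Without members that share a locus 4 were lower in pair 1. Without those with a near-identical copy 2 were higher and 2 lower in pair 1, 14 higher and 3 lower in pair WT4, and 1 (Sf3b5) higher in both. The fragment minimum and the 2 settings without some members leave fewer members by construction, and the bound shrinks genes at 0 by construction; the cause of the other changes was not tested. Depth limits pair WT4 most, where 1 IgG fragment is worth 2.50 scaled CPM.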
